A study of Rattus norvegicus with 11 samples.

Results

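rno-miR-103 and rno-miR-107, miR-103 and miR-107 from here on, are a pair of near-identical microRNAs of the rat. They were picked by their names on the arrays, star forms left out, and make up 2 of the 340 miRNA names that both array designs of the study share and 2 of the 152 miRNAs tested. Total RNA of pancreatic islets was measured on 11 Agilent 1-colour miRNA arrays, 1 array for each numbered animal. The HFD group held 5 animals (603, 607, 640, 644 and 653), daughters of Sprague Dawley rats fed pellets with 43% as fat, and the Control group held 6 (602, 613, 615, 635, 639 and 652), daughters of rats fed chow with 9% as fat. The fathers were mated at 15 weeks of age. The mothers ate chow, all the daughters were weaned onto chow at 3 weeks, and islets were taken at 13 weeks, after glucose had been injected for a tolerance test in weeks 6 and 12 and insulin in week 11. According to the series' description, the fathers on the fat diet were heavier, glucose intolerant and insulin resistant, and their daughters had a weaker insulin response to glucose with no difference in insulin tolerance or body weight. Fathers and litters are not named in the labels, so the spread between animals cannot be separated from the spread between families. Of the arrays, 8 were of a first design (4 HFD, 4 Control) and 3 of a second (HFD 640 and Control 635 and 652), with 350 and 677 miRNA names.

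MicroRNAs are short RNAs that guide a silencing complex to messenger RNAs, mainly by pairing of the seed near the 5′ end. Each of the genes for miR-103 and miR-107 lies in an intron of a pantothenate kinase gene, whose product starts the synthesis of coenzyme A. In mice both have been described as negative regulators of insulin sensitivity in liver and fat, with caveolin-1, a membrane protein that stabilises the insulin receptor, as a target in fat cells. The comparison here asked whether their level in a daughter's islets went with her father's diet.

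The mature sequences are shown because the identity of the pair sets what an array can tell apart. They are those of RefSeq on the rat build GRCr8, written 5′ to 3′ with the seed, bases 2 to 8, in capitals.
rno-miR-103-3p: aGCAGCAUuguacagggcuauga
rno-miR-107-3p: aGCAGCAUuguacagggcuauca
The 2 sequences are 23 bases long and share 22 of them. The single difference is G22C, with positions counted from the 5′ end and the base of miR-103 given first. No other of the 691 mature rat sequences in that table has the same bases 2 to 8. miR-103 is made from 2 hairpins, Mir103a1 at chr10:20748474-20748559 on the plus strand and Mir103a2 at chr3:138963227-138963312 on the plus strand. Mir103a1 lies inside the Pank3 gene and Mir103a2 inside Pank2, each on the strand of its host. miR-107 comes from Mir107 at chr1:241750418-241750504 on the minus strand, inside Pank1 and on its strand. A signal for miR-103 cannot be divided between the hairpins, and the files do not show how far a probe for either miRNA also binds the other.

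Neither miRNA differed between HFD and Control islets beyond the spread between animals. Both were detected on all 11 arrays, and for both the levels of the groups overlapped on the first design. The differences were close to 0 on a log2 scale and none of the 152 miRNAs was called. Values are given first as unscaled signal, the sum over a miRNA's probes, and then as log2 of the signal after scaling. Scaling divided the signal by the array's own 75th percentile among the 85 miRNAs detected throughout. The result was multiplied by the geometric mean of those percentiles over all arrays.

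On the first design miR-103 had an unscaled signal of 330.3, 577.1, 578.3 and 328.9 on HFD arrays 603, 607, 644 and 653, against 349.9, 524.0, 487.8 and 530.9 on Control arrays 602, 613, 615 and 639. On the second design it had 988.4 on HFD array 640, against 429.2 and 1028 on Control arrays 635 and 652. The lowest unscaled values of the first design were those of HFD 653 and 603 and Control 602. These 3 arrays also had the lowest overall signal of that design, with 75th percentiles of 653.1, 652.2 and 759.8 against 798.5 to 1052 on the other 5. After scaling, the highest over the lowest value of miR-103 on the first design came to 1.33, against 1.76 before.

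The scaled log2 level of miR-103 was 9.01, 9.20, 9.13 and 9.00 on HFD arrays 603, 607, 644 and 653, against 8.87, 9.11, 9.28 and 9.23 on Control arrays 602, 613, 615 and 639. All 4 HFD values lay between the lowest and the highest Control value. The HFD mean was 9.08 ± 0.096 and the Control mean 9.12 ± 0.18 (SD, n = 4 each). On the second design the level was 8.87 on HFD array 640, against 8.74 and 8.79 on Control arrays 635 and 652. There the single HFD array lay above both Control arrays. How many of the 152 miRNAs tested did so on this design was not counted. On both designs together, HFD lay above each Control array for 1 of the 152, or 0.658%, and for neither member.

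miR-107 had an unscaled signal of 201.7, 369.9, 380.1 and 253.4 on HFD arrays 603, 607, 644 and 653, against 222.7, 350.5, 309.7 and 357.0 on Control arrays 602, 613, 615 and 639. On the second design it had 1308 on HFD array 640, against 566.7 and 1427 on Control arrays 635 and 652. HFD 603 and Control 602 were the lowest arrays of the first design here too. The scaled log2 level was 8.30, 8.56, 8.52 and 8.63 on HFD arrays 603, 607, 644 and 653, against 8.22, 8.53, 8.62 and 8.66 on Control arrays 602, 613, 615 and 639. Again all 4 HFD values lay within the Control range. The HFD mean was 8.50 ± 0.14 and the Control mean 8.51 ± 0.20 (SD, n = 4 each). On the second design the level was 9.28 on HFD array 640, against 9.15 and 9.26 on Control arrays 635 and 652. The HFD array lay above both Control arrays, by less than the gap between those.

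**Figure D1:**
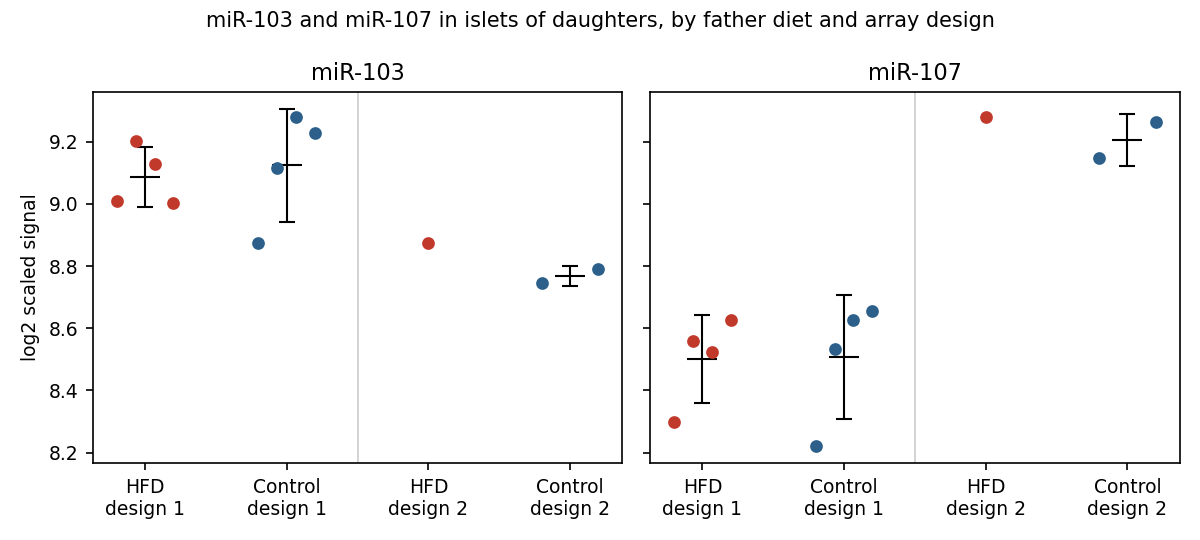
Scaled log2 signal of miR-103 and miR-107 on each array (points), HFD left of Control within each array design; bars give the mean and SD where a group has more than 1 array. On design 1 the HFD points of both miRNAs lie inside the Control range (8.87 to 9.28 for miR-103, 8.22 to 8.66 for miR-107).

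With the array design as a block in limma, the HFD minus Control difference of miR-103 was -0.0027 ± 0.099 (SE) on the log2 scale, with a 95% interval from -0.22 to 0.22. That interval runs from 0.857 to 1.16 as a fold. The Benjamini-Hochberg adjusted p from limma was 0.997. Permutation of the diet labels within the designs, exact over 210 splits, gave p = 0.971, two-sided. Under this scaling the difference was the 3rd smallest in size among the 152 miRNAs, a rank that rests on where the scaling puts 0.

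For miR-107 the same fit gave 0.013 ± 0.11 (SE), with a 95% interval from -0.23 to 0.25, or 0.854 to 1.19 as a fold. The adjusted p from limma was 0.987 and the exact permutation p 0.867, two-sided. Its difference was the 13th smallest in size under the same scaling. The standard errors of miR-103 and miR-107 ranked 20th and 32nd from the lowest, where the median miRNA had 0.18. Among the 85 miRNAs detected on all arrays, the members were 2 of 16 whose intervals left out a 1.2-fold difference both ways. The intervals do not carry the uncertainty of the scaling.

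Against this, limma called 0 of 152 miRNAs at an adjusted p of 0.05, a background of 0%, and 3, or 1.97%, at an unadjusted p of 0.05. The median difference over the 152 was 0.066, and 108 of them, 71.1%, lay above 0. That split depended on the scaling, with 36 above 0 when the 75th percentile was taken over all shared miRNAs and 134 above 0 with no scaling. Over the same settings the difference of miR-103 was -0.23 and 0.070 and that of miR-107 -0.21 and 0.086. Relative to the median of all tested miRNAs, miR-103 stood at -0.069 as reported, -0.082 with the 75th percentile over all shared miRNAs and -0.085 with no scaling. miR-107 stood at -0.053, -0.066 and -0.070. With quantile normalisation, which moved the median of the tested miRNAs by -0.13, miR-103 stood at 0.0029 and miR-107 at -0.099 relative to it.

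Both members had a difference below 0 on the first design and above 0 on the second. HFD minus Control was -0.039 ± 0.12 (SE) for miR-103 on the first design and 0.11 on the second, where a single HFD array leaves no spread in that group. For miR-107 it was -0.0075 ± 0.13 (SE) on the first design and 0.074 on the second. The diet by design interaction was 0.14 ± 0.24 (SE) for miR-103 and 0.081 ± 0.26 for miR-107, each with an adjusted p of 0.996 from limma. In that test 0 of 152 miRNAs passed at an adjusted p of 0.05, or 0%, and 1, or 0.658%, at an unadjusted p of 0.05.

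**Figure D2:**
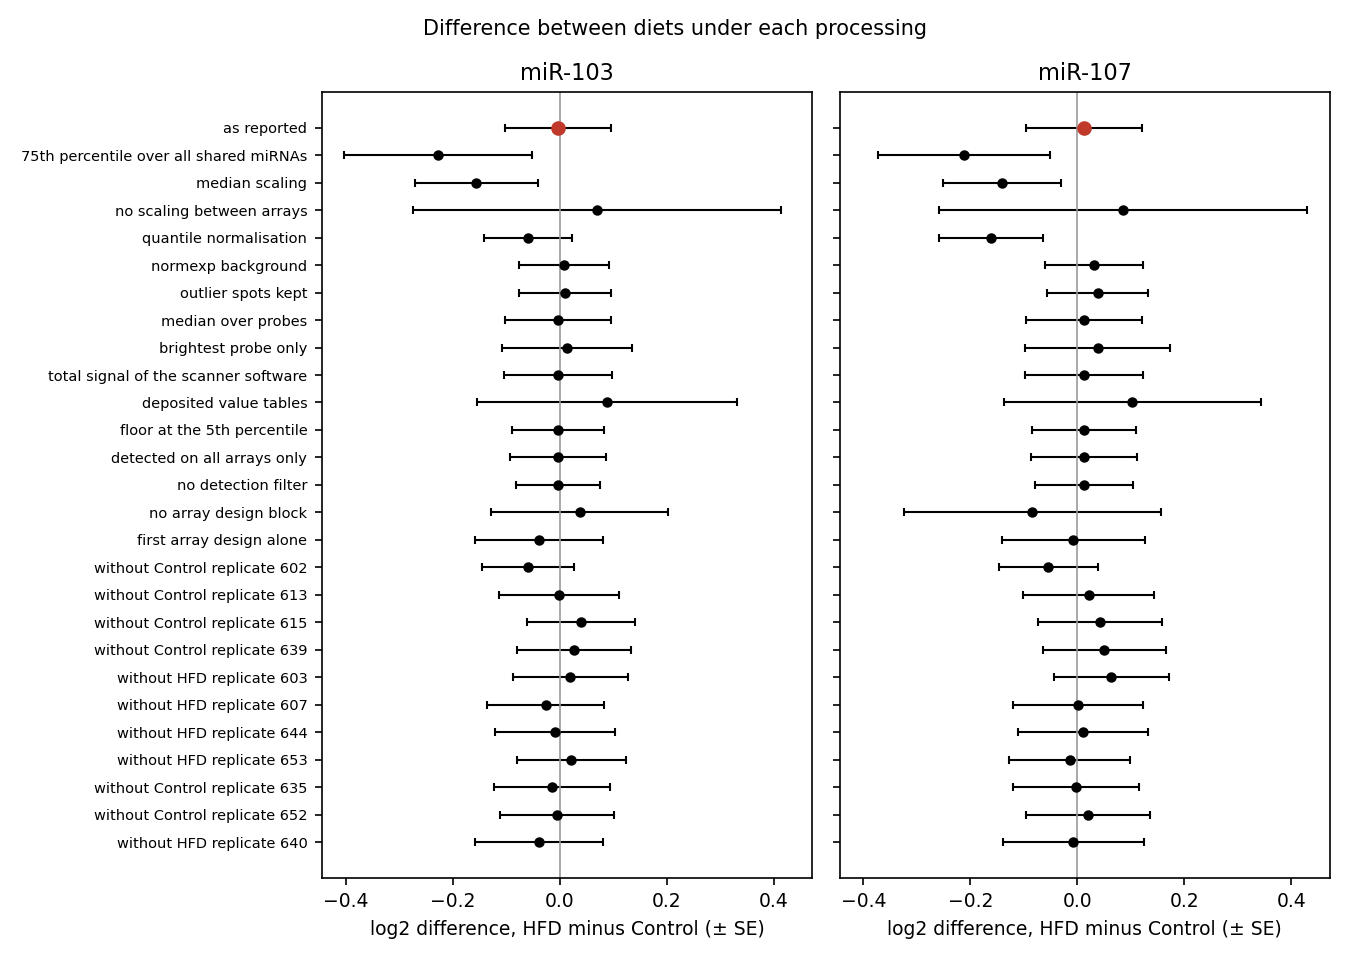
HFD minus Control log2 difference of miR-103 and miR-107 (points, with SE bars) as reported and under each of 26 other settings, one per line. The points lie on both sides of 0, and over those settings the adjusted p of either miRNA ran from 0.801 to 1.

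Since scaling between arrays cancels in a difference taken within an array, the members were also set against each other on each array. The ratio of their signals is not a ratio of abundance, because each has its own probes, so it is used here only for how it varies between arrays. On the first design, miR-107 minus miR-103 was -0.71, -0.64, -0.61 and -0.38 on HFD arrays 603, 607, 644 and 653, against -0.65, -0.58, -0.66 and -0.57 on Control arrays 602, 613, 615 and 639. HFD 653 stood above the other 7, which lay between -0.71 and -0.57. The HFD mean was -0.58 ± 0.15 and the Control mean -0.61 ± 0.045 (SD, n = 4 each). On the second design it was 0.40 on HFD array 640, against 0.40 and 0.47 on Control arrays 635 and 652. The HFD minus Control difference with the design as a block was 0.015 ± 0.059 (SE), with a 95% interval from -0.12 to 0.15. This interval is narrower than that of either member on its own, and it includes 0. Leaving out 1 array at a time moved the difference between -0.036 and 0.044. The lowest, -0.036 ± 0.029 (SE), was that without HFD 653, and the highest, 0.044 ± 0.058, that without HFD 603.

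The array design, by contrast, turned the order of the members. miR-107 read below miR-103 on all 8 arrays of the first design, where the difference was -0.60 ± 0.10, and above it on all 3 of the second, where it was 0.43 ± 0.040 (SD). The first design minus the second was -1.03, and no value of one design overlapped the other. Relative to the scaling, miR-103 was 0.30 higher and miR-107 0.72 lower on the first design than on the second. Over the 85 miRNAs detected on all arrays that shift had a median of -0.072 and ran from -3.34 to 2.52. Of these, 56 had a lower shift than miR-103 and 20 a lower one than miR-107. Array design, slide, scan and the version of the scanner software coincide and cannot be told apart. Both groups were on both designs, and the design was a term of each diet comparison above.

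**Figure D3:**
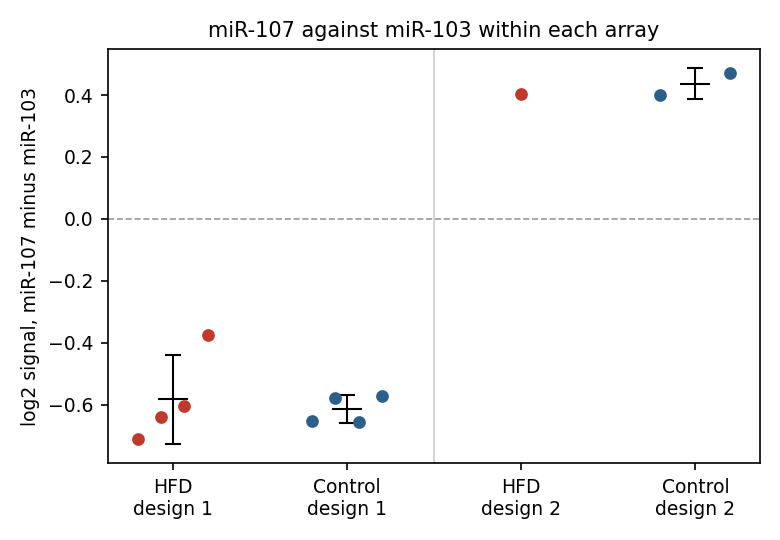
Log2 signal of miR-107 minus that of miR-103 on each array (points), HFD left of Control within each array design, with the mean and SD where a group has more than 1 array. The 8 arrays of design 1 lie between -0.71 and -0.38 and the 3 arrays of design 2 between 0.40 and 0.47.

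Each member was read by 2 probes, the same names on both designs, with 10 spots per array. Probes A_26_P00001304 and A_26_P00001305 read miR-103, and A_26_P00001308 and A_26_P00001309 read miR-107. The first probe of each pair was the brighter on every array. Probe sequences were not in the files used here, so none is shown. Of 440 spots, 15 carried an outlier flag and were left out of the signal, 421 were well above background and 0 were saturated. Of the 19 spots that were not well above background, all on HFD 653, those of A_26_P00001305 numbered 10 of 10 and those of A_26_P00001309 9 of 10. On that array both dimmer probes therefore had a level near the background, while the brighter ones were measured.

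With all arrays and the scaling above, none of the probes showed a difference between diets larger than its standard error. HFD minus Control was -0.019 ± 0.078 for A_26_P00001304 and 0.050 ± 0.10 for A_26_P00001305 (SE), the probes of miR-103. It was 0.0050 ± 0.097 for A_26_P00001308 and 0.027 ± 0.100 for A_26_P00001309 (SE), the probes of miR-107. On the first design the means of A_26_P00001304 were 8.85 ± 0.086 in HFD and 8.90 ± 0.18 in Control, and those of A_26_P00001305 6.34 ± 0.19 in HFD and 6.33 ± 0.19 in Control (SD, n = 4 each). The means of A_26_P00001308 were 8.18 ± 0.13 in HFD and 8.18 ± 0.22 in Control, and those of A_26_P00001309 6.19 ± 0.21 in HFD and 6.20 ± 0.15 in Control. With 1 array left out at a time, the difference ran from -0.075 to 0.024 for A_26_P00001304, from -0.0080 to 0.11 for A_26_P00001305, from -0.070 to 0.049 for A_26_P00001308 and from -0.013 to 0.10 for A_26_P00001309. Among these, the values beyond 1 standard error were -0.075 ± 0.060 for A_26_P00001304 and -0.070 ± 0.067 for A_26_P00001308 without Control 602, 0.11 ± 0.091 for A_26_P00001305 without HFD 653, and 0.10 ± 0.070 for A_26_P00001309 without HFD 603. The 2 probes of a miRNA share its RNA and are no replicates of the condition.

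**Figure D4:**
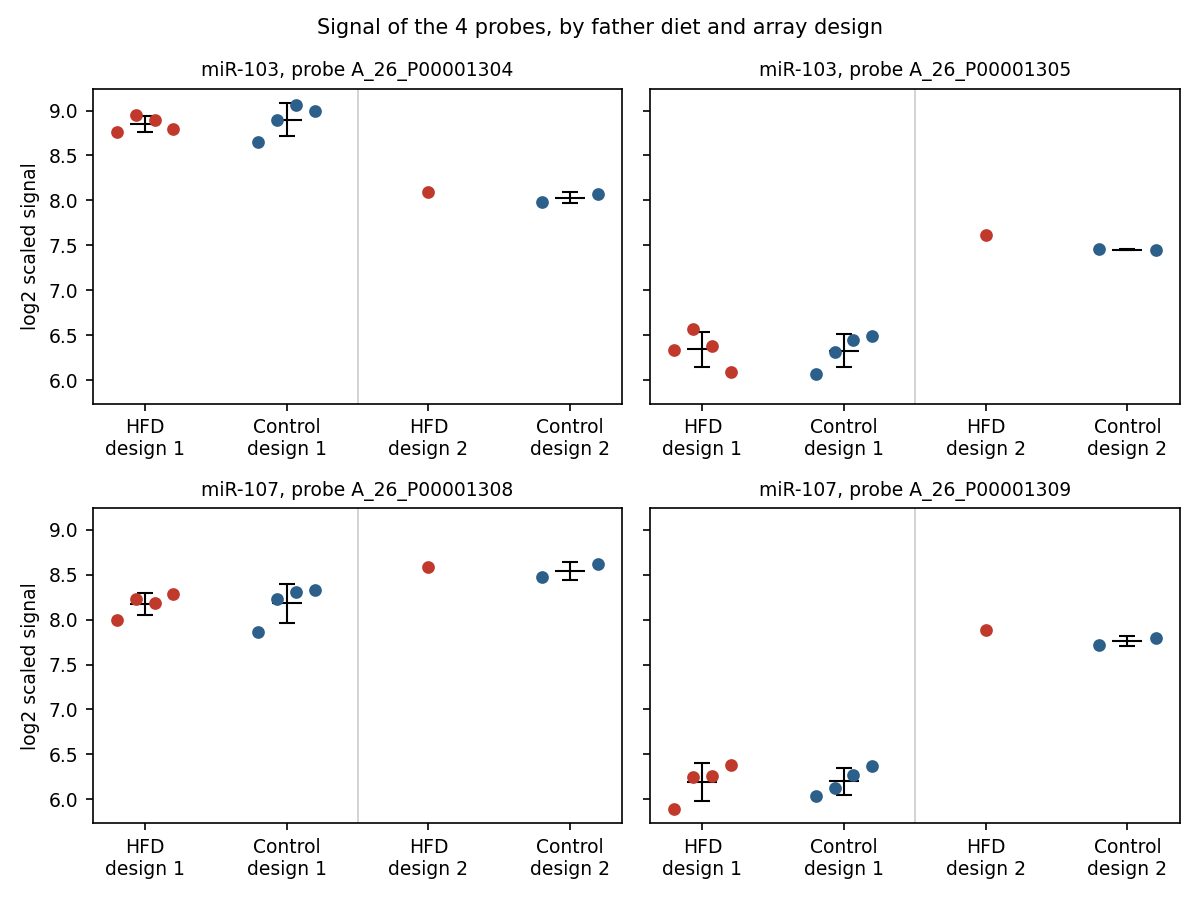
Scaled log2 signal of each of the 4 probes on each array (points), HFD left of Control within each array design, with the mean and SD where a group has more than 1 array. On design 1 the mean of A_26_P00001304 is 8.85 in HFD and 8.90 in Control and that of A_26_P00001305 6.34 in HFD and 6.33 in Control, and the probes of a pair lie closer together on design 2.

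The probes of each pair were farther apart on the first design than on the second. The brighter probe of miR-103 had 5.81 times the signal of the dimmer one on the first design (log2 2.54 ± 0.10, SD, n = 8) and 1.46 times on the second (0.54 ± 0.071, SD, n = 3). On HFD 653 the dimmer probe of miR-103 was not well above background, and without that array the ratio on the first design was 5.72 (log2 2.52 ± 0.086, SD, n = 7). For miR-107 the ratio was 3.95 on the first design (log2 1.98 ± 0.097) and 1.69 on the second (0.76 ± 0.056), with 3.98 on the first design without HFD 653. In shares, A_26_P00001304 gave 83.9% to 86.7% of the miR-103 signal on the first design, or up to 86.0% without HFD 653, and 58.4% to 60.6% on the second. A_26_P00001308 gave 78.1% to 81.2% of the miR-107 signal on the first and 61.9% to 63.7% on the second. The shares of the designs did not overlap for either member.

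Among the 85 miRNAs detected on all arrays, 74 had at least 2 probes common to both designs and every probe signal above 0. Of these 74, 71 had a higher log2 ratio of the probes on the first design. For miR-125a-3p, which had 4 probes, the 2 brightest on the first design were taken as the pair. The order of each pair was set by its brightness on that design, which favours a higher ratio there, and 5 pairs had the other order on the second. By the size of the log2 ratio, whatever the order, the probes were farther apart on the first design for 68 of the 74, with a median of 1.37 for the first design minus the second. With the order fixed, the median shift, first minus second, was 1.39, with a range from -0.77 to 3.04. miR-103 shifted by 1.99, with 15 of the 74 beyond it, and miR-107 by 1.22, with 45 beyond it. Between diets the probe ratio differed by -0.069 ± 0.058 (SE) for miR-103 and -0.022 ± 0.058 for miR-107, HFD minus Control with the design as a block. The spots of a probe also agreed less on the first design, where their coefficient of variation ran from 8.17% to 38.5% (median 17.0%), than on the second, where it ran from 2.92% to 10.3% (median 4.65%). Spots with an outlier flag were kept in these coefficients. The highest was that of A_26_P00001305 on HFD 653, where 0 of 10 spots were well above background. The next highest was 27.6%, that of A_26_P00001308 on Control 602.

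**Figure D5:**
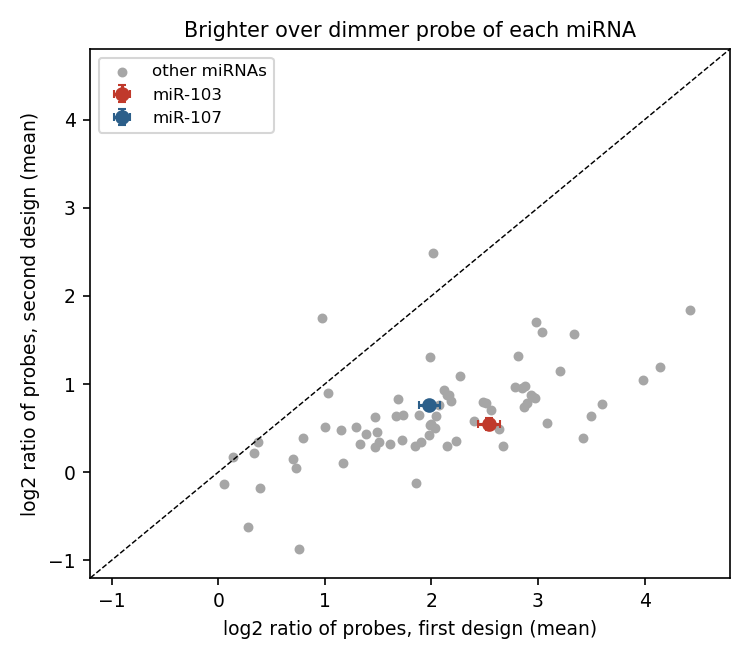
Mean log2 ratio of the brighter over the dimmer probe of 74 miRNAs on the first design (horizontal axis) and the second (vertical axis), the order of each pair set on the first design; the dashed line marks equal ratios and the bars on the members are SD. miR-103 (2.54 and 0.54) and miR-107 (1.98 and 0.76) lie below the line with all but 3 of the 74.

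Over the 8 arrays of the first design the scaled levels of miR-103 and miR-107 had a Pearson r of 0.780 (exact permutation over 40320 orders, p = 0.020, adjusted p = 0.035 over 7 relations). Spearman's rho was 0.571 (exact permutation p = 0.151, adjusted p = 0.176). Without the 2 arrays farthest from the median of miR-103, r was 0.511. Leaving out extreme arrays narrows the range of levels, which by itself tends to lower r, so this does not show where the relation rests. Without HFD 653, the array with the dim probes near background, r was 0.962, and without Control 602, the lowest array of both members, it was 0.566. The points share the scaling factor of their array. Between the brighter probes of the 2 miRNAs r was 0.848, and between their dimmer probes 0.238 (exact permutation p = 0.005 and 0.574, adjusted p = 0.034 and 0.574). Both r include HFD 653, on which the dimmer probes were near the background. The corresponding rho values were 0.810 and 0.262 (exact permutation p = 0.022 and 0.536, adjusted p = 0.051 and 0.536). Without the 2 arrays farthest from the median of the miR-103 probe of the pair, r was 0.657 for the brighter probes and 0.624 for the dimmer ones. The arrays left out differed, Control 602 and 615 for the brighter probes and Control 602 and HFD 653 for the dimmer ones.

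Over all 11 arrays, with levels centred within each design, miR-107 ranked 22nd among the 84 other miRNAs in likeness to miR-103, with r = 0.783. The miRNAs most like miR-103 were miR-301a (r = 0.949), miR-29c (0.915), miR-127 (0.907), miR-384-5p (0.905) and miR-27b (0.901), where the median miRNA had 0.355. Those most like miR-107 were miR-99b (r = 0.882), miR-7a (0.873), miR-410 (0.854), miR-29b (0.846) and miR-324-5p (0.844), where the median was 0.429 and miR-103 ranked 14th. The lists of 5 share no miRNA. These correlations are descriptions over arrays that share the scaling, and small gaps between ranks carry no weight at this number of arrays.

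By sequence, miR-103 and miR-107 belong to a wider group that shares the core AGCAGC near the 5′ end. In RefSeq 6 other miRNAs measured here have this core within their first 7 bases, starting at base 2 where it starts at base 1 in the members. They are miR-15b, miR-16, miR-195, miR-322, miR-497 and miR-503. miR-15b and miR-16 are a clustered pair known for repressing cell cycle genes and BCL2, and miR-322 and miR-503 are a clustered pair known from muscle differentiation. miR-503 was detected on 0 arrays. Of the group's 10 listed names 7 were tested, 0 passed in either direction against the background of 0%, and their median difference was 0.030 beside 0.066 over all 152. The group's median ran from -0.035 without HFD 603 to 0.14 without HFD 644, and was -0.19 with the 75th percentile over all shared miRNAs and -0.16 with quantile normalisation. The highest was miR-497 at 0.10 ± 0.22 and the lowest miR-103 itself at -0.0027 ± 0.099 (SE). miR-16, the most like miR-103 in size of difference, stood at 0.0029 ± 0.097.

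A list of 30 other miRNAs with described roles in insulin action or glucose homeostasis was set beside them. Of these 28 were on both designs and 22 were tested, of which 0 rose and 0 fell at an adjusted p of 0.05. None of the 152 miRNAs tested did either, a background of 0%. The list's median difference was 0.053, beside 0.066 over the 152, with 18 above 0 and 4 below, where 71.1% of the 152 were above 0. The largest was miR-181a at 0.70 ± 0.38 (SE), a miRNA described as a regulator of the deacetylase SIRT1. It was detected on 9 of 11 arrays, and all 11 entered the fit. The lowest was miR-96 at -0.10 ± 0.19. The adjusted p from limma was 0.987 for both. miR-29a, miR-29b and miR-29c, which in rodents dampen insulin signalling and, in beta cells, restrain the lactate transporter Mct1, stood at 0.093 ± 0.10, 0.073 ± 0.12 and 0.050 ± 0.093. miR-143, which in obese mice impairs insulin-stimulated AKT activation, stood at 0.13 ± 0.25 (SE).

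The star forms, the strands of the hairpins opposite to the mature ones, were on the second design as miR-103-1*, miR-103-2* and miR-107*. Each was detected on 0 of 3 arrays, where the mature forms were among the detected miRNAs, and no level is given.

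The labelled tissue was checked with miRNAs known to mark its cells. miR-375, the defining miRNA of islet endocrine cells, was detected on all 11 arrays, with a scaled signal of 3717 to 4889 in HFD and 3778 to 5444 in Control on the first design. The 5 islet markers together ran from 18641 to 22011 in HFD and from 18307 to 23181 in Control there. The 2 acinar markers on both designs summed to between 92.8 and 652.8 in HFD and between 0.951 and 622.6 in Control on the first design. Of these, miR-217 was detected on 4 arrays only. miR-216a, detected on all 11, ran from 106.0 to 665.9 in HFD and from 21.0 to 617.7 in Control there. The acinar and leukocyte sums include undetected markers, whose signal can lie below 0 and lower a sum. The 4 leukocyte markers summed to between 26.9 and 356.3 in HFD and between 24.5 and 32.1 in Control on the first design, and to 145.8 in HFD, against 77.8 and 146.8 in Control, on the second. miR-122, the defining miRNA of liver, was detected on 0 arrays. In bulk islets, fewer cells of a type and less RNA per cell cannot be told apart, and the part of these markers in the values of miR-103 and miR-107 was not tested.

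HFD 653 stood apart from the other arrays of its design. It had 105 of the shared miRNAs detected, against 138 to 157 on the other 7, and a spread of negative control spots of 38.2, against 6.38 to 7.53. Without it the difference was 0.022 for miR-103 and -0.015 for miR-107, and both signs were opposite to those with it, all within 1 standard error of 0.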

How the data were processed

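Per the labels' protocols, 100 ng of islet RNA was Cy3-labelled for each 1-colour Agilent miRNA array. The deposited spot intensity is the processed signal of Agilent Feature Extraction 10.5.1.1 (first design) or 10.7.3.1 (second), per the file headers, with background subtracted and no normalisation across arrays. The 2 value tables deposited by the authors hold log2 values, which equal log2 of the software's total signal plus 50 on the first design and log2 of that signal where detected on the second. Their column medians were 5.68 to 5.83 and 6.52 to 6.89, with no centring and no ratios. They were used as an alternative. The submitters' processing notes name RMA and Partek, whose role is not given in the sources used here.

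The mean over spots without outlier flags was taken per probe, and a miRNA's probes were added up. The sum was divided by the array's own 75th percentile among the 85 miRNAs detected throughout. It was then multiplied by the geometric mean of those percentiles over all arrays. A floor at the 1st percentile of the scaled detected signals, 10.3, was set before log2, and both members lay above it on all arrays. limma 3.58.1 in R 4.3.3 was fitted over 152 miRNAs detected on at least 5 arrays, with array design as a block and Benjamini-Hochberg adjustment at 0.05. Labels were also permuted exactly within designs. The fit was also run on simulated data with independent normal noise. These held no shared scaling error or families, so they do not bear on the differences near 0 reported here. No pair of arrays held identical values, and the number of arrays limits the precision.

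The alternatives changed the scaling, background, summary over spots or probes, filter, floor, block and arrays used. The normexp alternative used the median spot signal, the foreground column in the files. Leaving out arrays from the correlation of miR-103 and miR-107, the probe ratios without HFD 653 and the size of the probe ratio whatever its order were chosen after seeing the data. Named miRNAs are the members, the highest and lowest of each list, the 5 most like each member, the star forms and those with the shared seed or core. miR-16 beside miR-103, the miR-29 family, miR-143 and, where it is the single call, miR-150 were named after their values were seen. The members and lists were chosen with earlier results of these data known. Replicates are numbered animals, and sequences and positions come from RefSeq tables of GRCr8.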

Additional observations from a re-analysis of the deposited data

How the results depend on the processing

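Neither member was called under any of 26 alternatives, where adjusted p ran from 0.801 to 1. As their differences are near 0, the signs turned easily. miR-103, -0.0027 as reported, was 0.070 with no scaling between arrays, 0.0083 with normexp, 0.010 with outlier spots kept, 0.014 with the brightest probe alone, 0.089 from the deposited tables and 0.038 without the block for array design. miR-107, 0.013 as reported, was -0.21 when the 75th percentile was taken over all shared miRNAs, -0.14 when the median served for scaling, -0.16 with quantile normalisation, -0.084 without that block and -0.0075 on the first design alone. Leaving out 1 array at a time gave -0.059 to 0.039 for miR-103 and -0.054 to 0.064 for miR-107. Signs turned for miR-103 without HFD 603 or 653 or Control 615 or 639, and for miR-107 without HFD 640 or 653 or Control 602 or 635. The difference of miR-107 minus miR-103 was -0.10 with quantile normalisation and -0.12 without the block, against 0.015 as reported. With the 75th percentile over all shared miRNAs, probes A_26_P00001304, A_26_P00001305, A_26_P00001308 and A_26_P00001309 had -0.24, -0.17, -0.22 and -0.20, and the insulin list's median was -0.17; the median of all tested miRNAs moved by -0.21. With no scaling, 1 miRNA, miR-150, was called (adjusted p = 0.00062), against 0 in the other 25 alternatives. The cause of these changes was not tested. For a miRNA with 2 probes the median over probes is the mean of both, and the members' differences were the same as with the sum. The correlation of the members ran from 0.566 to 0.962 with 1 array left out. Its exact permutation p, here not adjusted over the relations, was below 0.05 without 6 of the 8 arrays. The exceptions were Control 602 (exact permutation p = 0.183) and Control 639 (0.058). No paired analysis was possible because the labels name no pairs, fathers or litters. Signal over background limits the dimmer probes on HFD 653, and the second design has 1 HFD array.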
